A study of Mus musculus with 11 samples.

Results

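The Slc25 family holds the mitochondrial carriers, the proteins that move metabolites across the inner membrane of mitochondria. Members were taken by symbol, as every gene named Slc25a followed by a number, and required at least 10 counts in at least 2 libraries. Of 25006 genes in the files, 47 carried such a symbol and 41 met the requirement. These 41 were also among the 14779 genes that passed the filter for testing. The other 6 (Slc25a2, Slc25a18, Slc25a21, Slc25a41, Slc25a48 and Slc25a54) had too few counts, between 1 count in all libraries together for Slc25a41 and Slc25a48 and 35 counts for Slc25a2.

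Bulk mRNA of the left ventricle was sequenced from 11 mice, 1 stranded library per mouse. The naive control group (M44 and M45, n = 2) and the control group with myocardial infarction (MI control; M006, M38 and M40, n = 3) have the genotype Vegfc fl/fl in the sample labels, whereas the protocol text and the methods of the study call the controls LysMCre mice, so that the presence of Cre in them is not settled. The naive Vegfc-deficient group (M149, M150 and M34, n = 3) and the MI Vegfc-deficient group (M35, M900 and M913, n = 3) are Vegfc fl/fl;LysMCre, with Vegfc floxed in all 4 groups if the genotype field is followed. MI mice had permanent ligation of the left anterior descending coronary artery and infarcted tissue taken at day 9, and naive mice gave a piece of ventricle of similar mass and position without surgery. LysMCre, Cre placed in the lysozyme gene Lyz2, acts in macrophages and other myeloid cells and not in cardiomyocytes. Age was not stated. Values of single libraries are listed in the order in which the mice of each group are named here.

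Almost every carrier has the same fold, built of repeats that cross the membrane in pairs, and exchanges a substrate of the cytosol for a substrate of the matrix. Adenine nucleotide translocases bring ADP in and ATP out, the phosphate carrier supplies phosphate for ATP synthase, and others carry acylcarnitines, dicarboxylates, amino acids, cofactors, iron or glutathione. The heart, with its dense mitochondria, depends on these exchanges for oxidation of fatty acids and for export of ATP to the contractile apparatus.

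Total counts were 10824989 to 14585642 in the 5 naive libraries and 14580756 to 26782728 in the 6 MI libraries. Levels are given in CPM, the counts scaled to library sizes with TMM factors. In this unit 3 counts, the limit that a count of 0 allows for counting error, were worth 0.101 to 0.363. Vegfc itself lay between 21.9 and 45.5 CPM with all 4 groups overlapping. Lyz2, which carries the Cre insertion, was at 2121 to 5380 CPM in control libraries and at 12.4 to 1392 CPM in 5 Vegfc-deficient libraries, whereas M149, the library labelled naive Vegfc-deficient, had 4565 CPM and therefore goes against its label. Xist was at 0.624 to 11.8 CPM in every naive library and at 188 to 403 CPM in every MI library, and 4 Y-linked genes summed to 152 to 195 CPM in naive and at most 1.84 CPM in MI libraries. Infarction and this sex-linked difference coincided in every library and cannot be told apart in any comparison of MI with naive. The summed level of 12 cardiomyocyte markers was 80645 to 113054 CPM in naive and 2909 to 29149 CPM in MI libraries, and 12 of 12 fell in control and 11 of 12 in Vegfc-deficient mice, so that the tissue label was met in naive libraries and cardiomyocyte RNA was a smaller share after MI. The part of cell composition in the changes below was not tested, and in bulk tissue fewer cells of a type and less RNA per cell cannot be told apart.

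In naive hearts the carriers of oxidative metabolism stood far above the rest. Slc25a4, the adenine nucleotide translocase of heart and skeletal muscle (ANT1), was at a mean of 4859 CPM per kb of exon over the 5 naive libraries and made up 64.7 to 71% of the counts of the whole family. Slc25a11, the oxoglutarate and malate carrier, followed at 517 CPM per kb and Slc25a3, the phosphate carrier, at 410 CPM per kb. Slc25a5, the more widely expressed translocase ANT2, was at 127 CPM per kb and Slc25a39, a glutathione carrier, at 80.3 CPM per kb. At the low end were Slc25a31 (0.962 CPM per kb), Slc25a53 (0.474 CPM per kb) and Slc25a43 (0.303 CPM per kb), and the counts of Slc25a31 and Slc25a43 were close to the floor in some libraries. The same 5 members led in each of the 4 groups, in the same order.

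**Figure D1:**
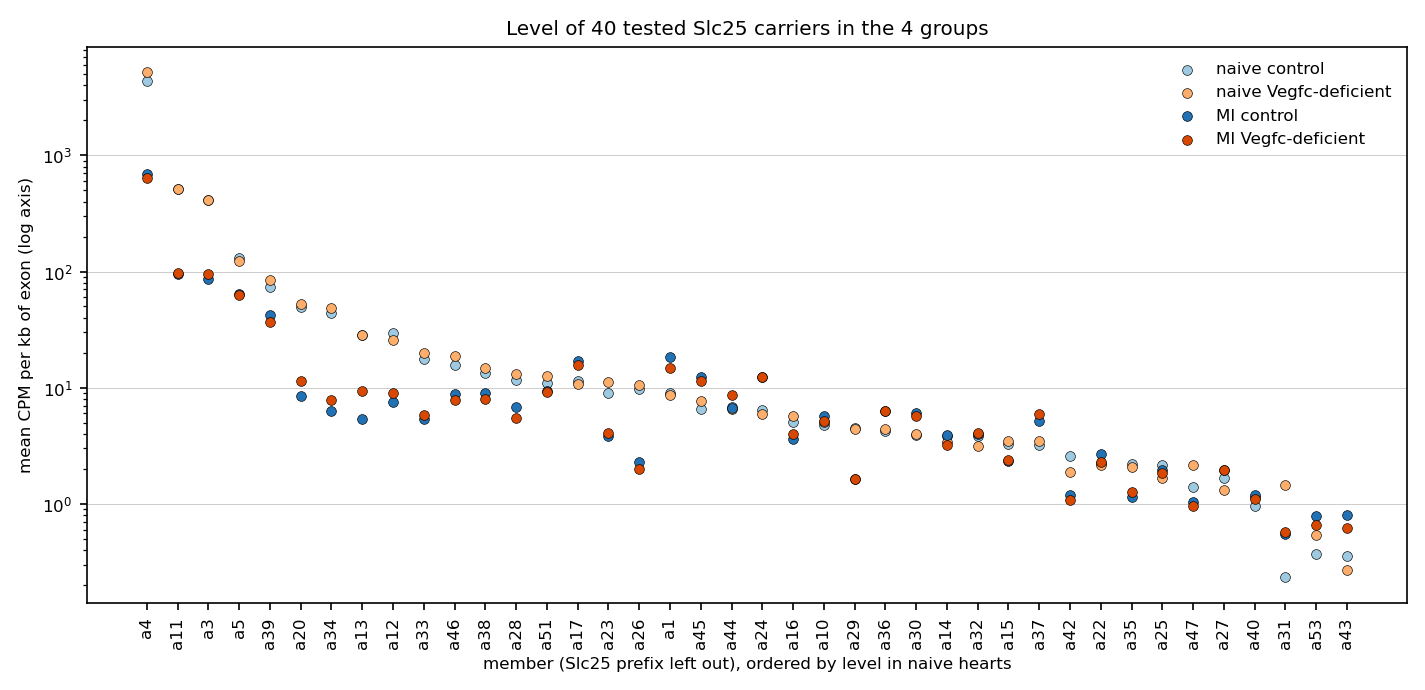
Group means of 40 of the 41 tested members in CPM per kb of exon, on a log axis, ordered by their mean in the 5 naive libraries; each point is the mean of 1 group. The members with the highest naive level, from a4 to a38, lie lower after MI in both genotypes, while members further right lie on either side.

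The family as a whole took 1.21 to 1.64% of all counts in naive libraries and 0.254 to 0.511% in MI libraries. In control mice 8 of 41 members rose, 21 fell and 12 did not pass the test (quasi-likelihood test of edgeR, Benjamini-Hochberg adjusted p under 0.05 among 14779 genes). The share called was 70.7%, beside 50.4% of all genes tested (26.3% higher and 24.1% lower), and the members had a median log2 fold change of -0.47, all genes one of 0.13. In Vegfc-deficient mice 7 rose, 24 fell and 10 did not pass. The share was 75.6%, beside 57.6% of all genes (30.0% higher and 27.7% lower), with medians of -0.71 and 0.10. The libraries of the groups did not overlap for 10 higher and 22 lower members in control mice, beside 72.1% of all genes (39.1% higher and 33.0% lower). They did not overlap for 8 higher and 24 lower members in Vegfc-deficient mice, beside 64.3% of all genes (33.6% higher and 30.7% lower). In both genotypes 6 members rose and 21 fell, beside 21.2% of all genes tested in each direction.

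These counts depended on how libraries were scaled, since the TMM factors were 0.763 to 0.875 in naive and 1.1 to 1.19 in MI libraries. With total counts alone, an alternative added after the data were seen, the median of all genes moved to 0.58 in control and 0.59 in Vegfc-deficient mice. The split was then 13 members higher and 13 lower in control mice and 11 higher and 16 lower in Vegfc-deficient mice. Of all 14779 genes tested, 9009 were called in control and 9880 in Vegfc-deficient mice with this scaling. These shares were close to those of the 41 members, unlike with TMM factors. The 6 members that rose in both genotypes were still called, and 13 of the 21 that fell were, among them Slc25a3, Slc25a4, Slc25a11, Slc25a12, Slc25a20 and Slc25a34. The other 8 that fell (Slc25a15, Slc25a16, Slc25a28, Slc25a35, Slc25a38, Slc25a39, Slc25a42 and Slc25a46) kept a negative log2 fold change in both genotypes but were not called in both. Without naive control M44, which leaves that group with 1 library whose spread is taken from the other groups, 3 members rose and 16 fell in control mice, and 3 (Slc25a17, Slc25a24 and Slc25a37) rose in both genotypes. Without naive control M45 it was 5 and 20 in control mice, and 4 rose in both genotypes. Both fits without a naive control library also called fewer of all genes in control mice than the fit of all 11 libraries. Without M149, labelled naive Vegfc-deficient, 8 rose and 23 fell in Vegfc-deficient mice, and 6 rose and 21 fell in both genotypes.

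**Figure D2:**
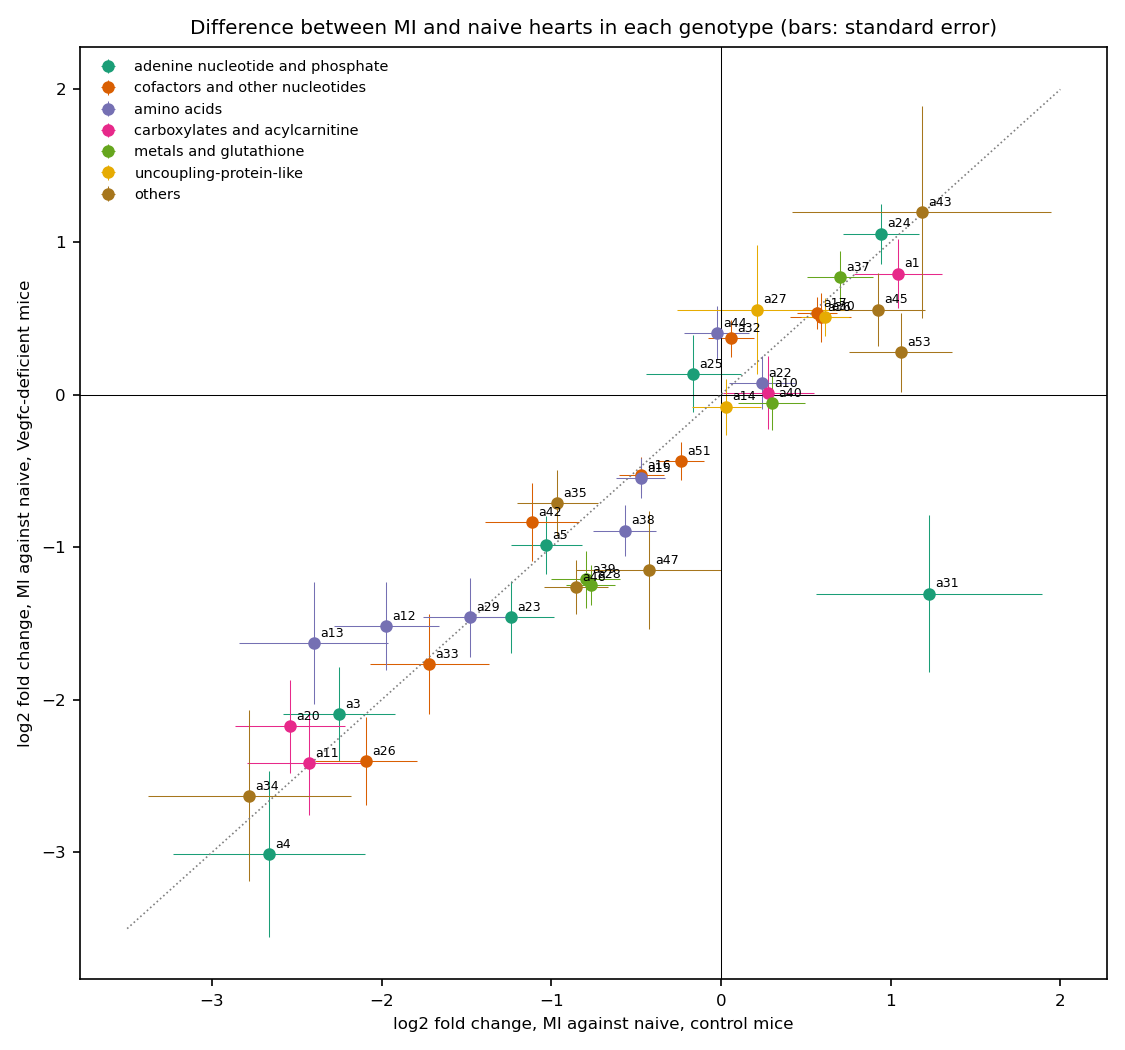
Log2 fold change of MI against naive for 40 of the 41 members in control mice (horizontal) and Vegfc-deficient mice (vertical), coloured by substrate group; bars are standard errors and the dotted line marks equal change. The members run from Slc25a4 and Slc25a34 at the lower left to Slc25a24 and Slc25a1 at the upper right, and Slc25a31 lies apart with opposite signs; the genotypes do not share libraries, and total-count scaling shifts all points upward.

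The translocases Slc25a4 and Slc25a5 and the phosphate carrier Slc25a3, which feed ATP synthase, were lower after MI. Slc25a4 (chr8:46206797-46211284, minus strand) was at 9312 and 11218 CPM in naive control and 9225, 15234 and 12173 CPM in naive Vegfc-deficient libraries, and at 1644, 2477 and 733 CPM in MI control and 2241, 715 and 1592 CPM in MI Vegfc-deficient libraries. Every MI library lay below every naive library, and M40 and M900 were the lowest. The fall was 6.35-fold in control mice (log2 fold change -2.67, standard error 0.57, edgeR adjusted p = 0.00351) and 8.06-fold in Vegfc-deficient mice (-3.01, standard error 0.54, adjusted p = 0.00104). Slc25a3 (chr10:91116574-91124059, minus strand) was at 2207 and 2370 CPM and 1984, 2820 and 2010 CPM in the naive groups and at 534, 560 and 348 CPM and 741, 380 and 478 CPM in the MI groups. Its groups did not overlap, with falls of 4.76-fold in control mice and 4.26-fold in Vegfc-deficient mice (edgeR adjusted p = 0.000572 and 0.000317). Slc25a5 (chrX:36795651-36798807, plus strand), X-linked, was at 217 and 211 CPM and 192, 254 and 168 CPM in naive and at 92.4, 127 and 94.9 CPM and 114, 87.5 and 108 CPM in MI libraries. It fell less, 2.04-fold in control mice and 1.98-fold in Vegfc-deficient mice (edgeR adjusted p = 0.00281 and 0.00156). The gene has processed pseudogene copies, and how reads shared with them were counted is not given in the sources used here. The ratio of Slc25a4 to Slc25a5, both per kb, was 30 to 50.6 in naive libraries and 5.4 to 13.7 in MI libraries, and this ratio within a library does not depend on the scaling.

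The calcium-regulated carriers of ATP-Mg and phosphate divided. Slc25a23 was at 47.4 and 48.3 CPM and 55.6, 61.6 and 61.5 CPM in the naive groups and at 19.9, 24.9 and 16.2 CPM and 29.4, 14.6 and 21.1 CPM in the MI groups, and fell 2.36-fold and 2.75-fold in control and Vegfc-deficient mice (edgeR adjusted p = 0.00297 and 0.000537). Slc25a24 (chr3:109123149-109168457, plus strand) went the other way, from 21.9 and 22 CPM in naive control and 27.2, 15.4 and 18.5 CPM in naive Vegfc-deficient libraries to 39.5, 42.3 and 44.7 CPM and 35.1, 48.5 and 43.3 CPM after MI. All MI libraries were above all naive libraries, with rises of 1.92-fold and 2.08-fold (edgeR adjusted p = 0.00606 and 0.00126). The per-kb ratio of Slc25a24 to Slc25a23 was 0.385 to 0.754 in naive and 1.84 to 5.13 in MI libraries. Slc25a25, the third of this type tested, whose exons share 379 bases with Naif1 on the opposite strand, did not pass in either genotype (log2 fold change -0.16 in control and 0.14 in Vegfc-deficient mice).

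**Figure D3:**
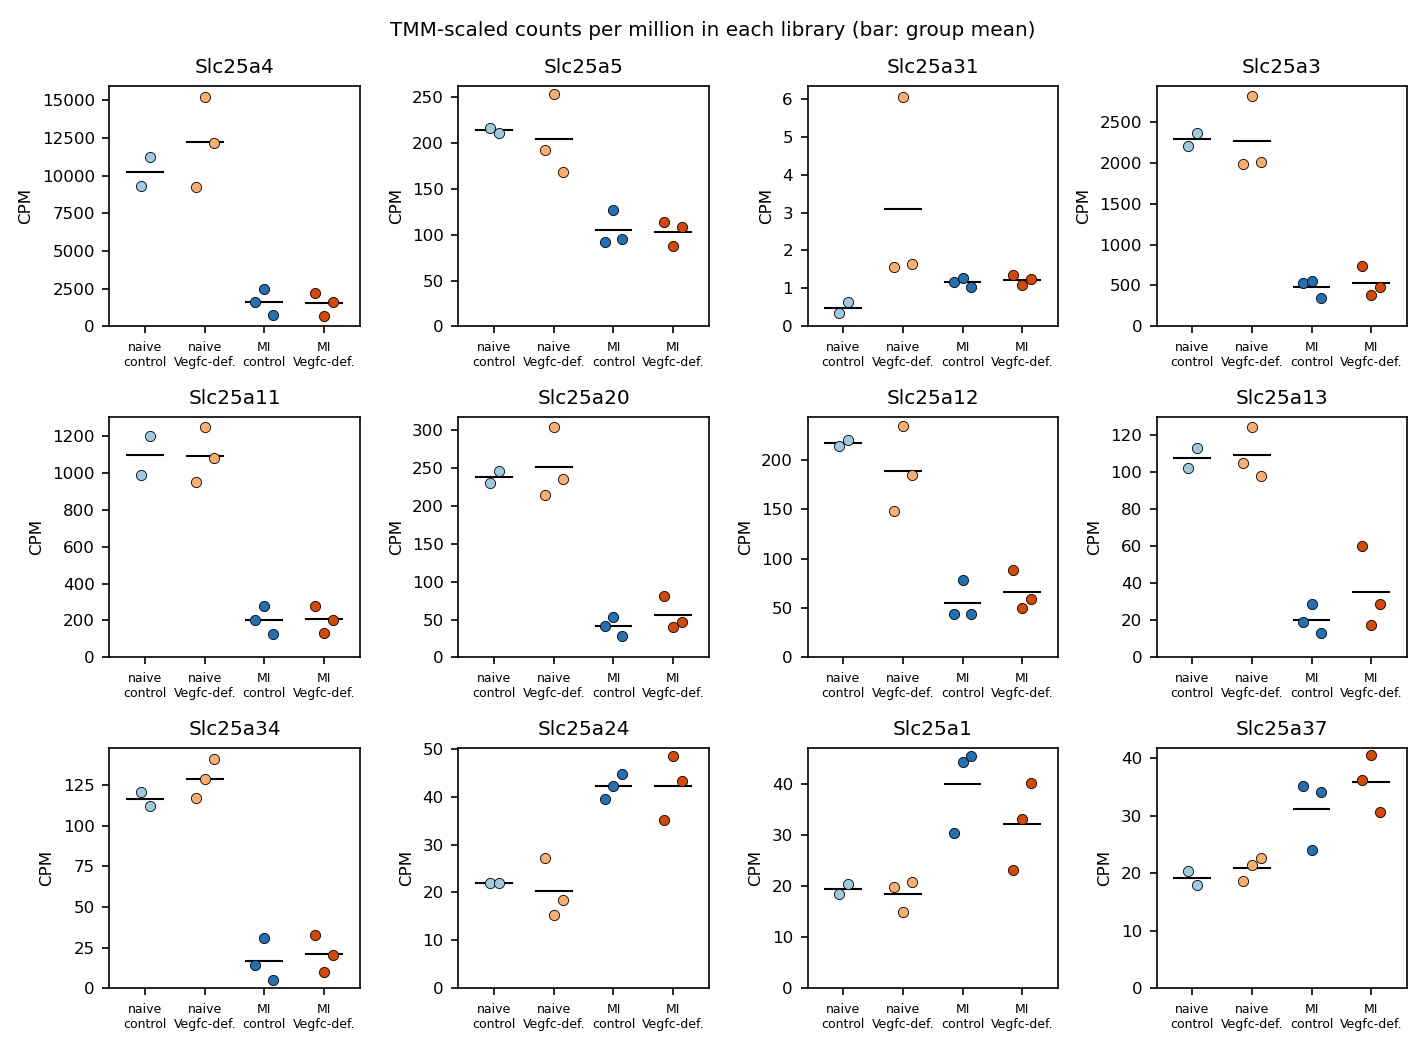
CPM of 12 members in each of the 11 libraries, a point per library and a bar at the group mean, each panel with its own axis from 0. Slc25a4, Slc25a5, Slc25a3, Slc25a11, Slc25a20, Slc25a12, Slc25a13 and Slc25a34 are lower in every MI library than in any naive library of the same genotype, and Slc25a24, Slc25a1 and Slc25a37 are higher.

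The malate-aspartate shuttle carries reducing equivalents of cytosolic NADH into mitochondria, and its carriers fell together. Slc25a11 (chr11:70644196-70647479, minus strand) was at 991 and 1201 CPM in naive control, 952, 1247 and 1083 CPM in naive Vegfc-deficient, 204, 280 and 126 CPM in MI control and 279, 132 and 205 CPM in MI Vegfc-deficient libraries. No MI library reached the naive range, and the falls were 5.39-fold in control mice and 5.33-fold in Vegfc-deficient mice (log2 fold changes -2.43 and -2.41, edgeR adjusted p = 0.000625 and 0.000257). Its exons share 189 bases with Rnf167 on the opposite strand, and the strand setting of the counting is not given in the sources used here. Slc25a12, the aspartate and glutamate carrier aralar, was at 214 and 220 CPM and 148, 234 and 185 CPM in the naive groups and at 43.8, 78.4 and 43.4 CPM and 88.3, 50.4 and 59.6 CPM in the MI groups. Slc25a13, its paralog citrin, was at 102 and 113 CPM and 105, 124 and 97.6 CPM in the naive and at 18.8, 28.9 and 13.3 CPM and 59.8, 17.5 and 28.5 CPM in the MI groups. For both genes all MI libraries were below all naive libraries, with M35 the highest of the MI Vegfc-deficient group. Slc25a12 fell 3.92-fold in control and 2.86-fold in Vegfc-deficient mice (edgeR adjusted p = 0.000815 and 0.00134). Slc25a13 fell 5.28-fold and 3.09-fold (edgeR adjusted p = 0.00167 and 0.006). The per-kb ratio of the 2 carriers, 0.731 to 1.08 in naive and 0.764 to 1.69 in MI libraries, overlapped.

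Among the other carboxylate carriers, Slc25a20 (chr9:108662088-108684641, plus strand), which brings acylcarnitines in for fatty acid oxidation, was at 231 and 247 CPM in naive control and 215, 304 and 236 CPM in naive Vegfc-deficient libraries. After MI it was at 42, 53.2 and 27.9 CPM in control and 80.6, 39.6 and 47.3 CPM in Vegfc-deficient libraries, below all naive libraries. It fell 5.82-fold in control mice (log2 fold change -2.54, standard error 0.33, edgeR adjusted p = 0.000348) and 4.52-fold in Vegfc-deficient mice (-2.17, standard error 0.30, adjusted p = 0.000238). Slc25a1 (chr16:17925223-17928219, minus strand), which exports citrate for lipid synthesis in the cytosol, was higher, at 18.5 and 20.5 CPM and 19.8, 15 and 20.9 CPM in the naive groups and 30.5, 44.3 and 45.6 CPM and 23.2, 33.2 and 40.3 CPM in the MI groups. The groups did not overlap, although M35 at 23.2 CPM came close to naive M34 at 20.9 CPM, and the rises were 2.06-fold in control and 1.73-fold in Vegfc-deficient mice (edgeR adjusted p = 0.00751 and 0.0126). The call for Slc25a1 was lost in control mice without M44 (adjusted p = 0.0623) and in Vegfc-deficient mice without M913 (0.0693) or M150 (0.0523). Slc25a10, the dicarboxylate carrier, did not pass in either genotype (log2 fold change 0.28 in control and 0.01 in Vegfc-deficient mice).

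The amino acid carriers held no member that rose, with 5 of 7 tested lower in both genotypes, beside 21.2% of all genes tested. Beside Slc25a12 and Slc25a13 these were Slc25a29, a carrier of basic amino acids, Slc25a15, the ornithine carrier, and Slc25a38, the glycine carrier of haem synthesis. Slc25a29 was at 13.3 and 10.3 CPM and 8.63, 11.1 and 15 CPM in the naive groups and at 4.25, 4.16 and 4.29 CPM and 5.58, 3.73 and 3.4 CPM in the MI groups, without overlap, and fell 2.79-fold and 2.75-fold (edgeR adjusted p = 0.00197 and 0.000952). Slc25a15 and Slc25a38 fell by 0.47 and 0.57 on the log2 scale in control mice and by 0.55 and 0.89 in Vegfc-deficient mice. Slc25a22, a glutamate carrier, and Slc25a44, a carrier of branched-chain amino acids, did not pass in either genotype.

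Carriers of cofactors and nucleotides moved in both directions. Slc25a26, which brings S-adenosylmethionine into the matrix, had the largest falls of this group, from 50.7 and 43.5 CPM in naive control and 43.4, 54.7 and 52.6 CPM in naive Vegfc-deficient libraries to 11.5, 15.1 and 6.57 CPM and 10.8, 6.96 and 10.8 CPM after MI. The falls were 4.26-fold in control and 5.28-fold in Vegfc-deficient mice (edgeR adjusted p = 0.000546 and 0.000111). Its exons overlap those of Lrig1 on the opposite strand by 144 bases. The 2 pyrimidine nucleotide carriers parted: Slc25a33 was at 28.4 and 38.9 CPM and 38.9, 37.5 and 35.3 CPM in naive and 12.2, 13 and 5.5 CPM and 15.1, 7.67 and 10.2 CPM in MI libraries, and Slc25a36 at 40.3 and 40.3 CPM and 41.6, 41 and 45.1 CPM in naive and 67.5, 50.4 and 64 CPM and 73.5, 58.1 and 49.8 CPM in MI libraries. All MI libraries lay below all naive libraries for Slc25a33 and above them for Slc25a36. Slc25a33 fell 3.29-fold and 3.4-fold (edgeR adjusted p = 0.00289 and 0.00119). Slc25a36 rose 1.5-fold and 1.42-fold (edgeR adjusted p = 0.02 and 0.0195), and the call was lost in 4 of the fits that left out a library in control mice, with M44, M45, M006 or M40 removed (adjusted p of 0.051 to 0.0983), and in 2 in Vegfc-deficient mice, with M150 or M35 removed (0.0597 and 0.0692).

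Slc25a17, the carrier of the family that sits in peroxisomes and moves CoA and related cofactors, was at 33.4 and 31.7 CPM and 28, 34.4 and 29.5 CPM in naive and 48.8, 47.4 and 48.7 CPM and 42.6, 46.5 and 44 CPM in MI libraries. Its MI libraries were all above its naive libraries and within 42.6 to 48.8 CPM, with rises of 1.48-fold and 1.45-fold (edgeR adjusted p = 0.00336 and 0.00177). Slc25a42, a CoA carrier, and Slc25a16 were lower in both genotypes, with log2 fold changes of -1.11 and -0.47 in control and -0.83 and -0.53 in Vegfc-deficient mice. Slc25a32, linked to folate and flavin transport, rose in Vegfc-deficient mice alone by the threshold, at 26 and 20.9 CPM in naive control and 17.5, 20.7 and 19.5 CPM in naive Vegfc-deficient libraries against 25.8, 23.6 and 23.8 CPM and 24.7, 24.8 and 24.9 CPM after MI (log2 fold change 0.06 in control and 0.37 in Vegfc-deficient mice, edgeR adjusted p = 0.736 and 0.0238). The 6 MI libraries of Slc25a32 spanned 23.6 to 25.8 CPM, and naive control M44, at 26 CPM, was above them all. The call in Vegfc-deficient mice was lost with RLE factors (adjusted p = 0.0501) and without M149, M34, M900 or M913 (0.0513 to 0.0741). Slc25a51, the NAD carrier, was called lower in Vegfc-deficient mice alone (-0.43, edgeR adjusted p = 0.0125; -0.24 in control mice). Its sign turned with total-count scaling (0.06), and the call was lost without M34 (adjusted p = 0.0522).

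The iron carriers of the family also parted. Slc25a37, mitoferrin-1, best known from red cell precursors, was at 20.4 and 17.9 CPM and 18.7, 21.5 and 22.7 CPM in the naive groups and at 35.2, 24 and 34.1 CPM and 36.1, 40.6 and 30.6 CPM in the MI groups. Slc25a28, mitoferrin-2, was at 43 and 43.8 CPM and 42.2, 53.6 and 50.2 CPM in the naive and 24.8, 27.3 and 24.3 CPM and 20.2, 18.1 and 23.2 CPM in the MI groups. The first was above and the second below the naive libraries in every MI library. Slc25a37 rose 1.62-fold and 1.7-fold (edgeR adjusted p = 0.0133 and 0.00352), and without M45 the call in control mice was lost (adjusted p = 0.105). Slc25a28 fell 1.7-fold and 2.37-fold (edgeR adjusted p = 0.00181 and 6.65e-05). Their per-kb ratio was 0.25 to 0.296 in naive and 0.548 to 1.4 in MI libraries. Of 5 red cell markers 0 passed the test in control mice and 5 fell in Vegfc-deficient mice, and their sum was 1092 to 4383 CPM in naive and 309 to 1375 CPM in MI libraries. Slc25a39 was at 208 and 198 CPM and 227, 245 and 227 CPM in naive and 103, 142 and 106 CPM and 85, 89.3 and 128 CPM in MI libraries and fell 1.74-fold and 2.31-fold (edgeR adjusted p = 0.00835 and 0.000411), a call that was lost in control mice without M44 (adjusted p = 0.0544) and with total counts (0.12). Its paralog Slc25a40 did not pass in either genotype (0.30 and -0.05), and the per-kb ratio of Slc25a39 to Slc25a40 was 66 to 92.3 in naive and 24.3 to 49.5 in MI libraries.

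Of the carriers that resemble uncoupling proteins, Slc25a30 was at 17 and 19.1 CPM and 19.2, 19.4 and 16.7 CPM in naive and 26.4, 29.9 and 26.5 CPM and 24.6, 29.1 and 24.9 CPM in MI libraries. Every MI library was above every naive library, with rises of 1.53-fold and 1.42-fold (edgeR adjusted p = 0.00539 and 0.0057), and the call in control mice was lost without M44 (adjusted p = 0.059). Slc25a14 and Slc25a27 did not pass in either genotype. Slc25a34, a carrier without an established substrate, was at 121 and 112 CPM and 117, 129 and 141 CPM in the naive and at 14.4, 31 and 5.39 CPM and 32.7, 9.85 and 20.2 CPM in the MI groups. Its falls, 6.86-fold in control mice (log2 fold change -2.78, standard error 0.60, edgeR adjusted p = 0.00372) and 6.19-fold in Vegfc-deficient mice (-2.63, standard error 0.56, adjusted p = 0.00271), were beside those of Slc25a4 the largest of the family. Within MI, M40 and M900 were again lowest and M38 and M35 highest, as for the cardiomyocyte marker sum in each group, which was 2909 CPM in M40, 16177 CPM in M38, 6465 CPM in M900 and 29149 CPM in M35. Slc25a35 and Slc25a46, a protein of the outer membrane linked to mitochondrial shape, fell in both genotypes. The reads of Slc25a35 are uncertain, since its exons share 1151 bases with Rangrf on the opposite strand.

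Members called in 1 genotype alone were not shown to differ between genotypes. Slc25a45 and Slc25a53 rose in control mice (log2 fold changes 0.93 and 1.06, edgeR adjusted p = 0.0172 and 0.0145) and had 0.56 and 0.28 in Vegfc-deficient mice (adjusted p = 0.0677 and 0.38). Slc25a47 was lower in Vegfc-deficient mice (-1.15, edgeR adjusted p = 0.0262) and at -0.42 in control mice (adjusted p = 0.427). These calls depended on single libraries and on the method. That of Slc25a45 was lost without M44, M45 or M38 (adjusted p of 0.0612 to 0.107) and that of Slc25a53 without M44 (0.114), and Slc25a45 passed in Vegfc-deficient mice without M35 (0.0297) or M40 (0.0159). With all libraries kept, Slc25a45 also passed in Vegfc-deficient mice by limma-voom (adjusted p = 0.0229) and by edgeR with total counts (0.00304). It passed too in an edgeR fit of only the groups compared (0.0265). The call for Slc25a47 was lost without M149, M150, M35 or M900 (0.0528 to 0.113), with limma-voom (0.0666) and with total counts (0.141). The interaction terms of these members, the difference of the MI change between genotypes, had edgeR adjusted p of 0.804, 0.62 and 0.74. Slc25a31 was also called lower in Vegfc-deficient mice, just under the threshold (edgeR adjusted p = 0.0497) and not under 15 of 19 alternatives, and its values are given with the genotype comparison.

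The X-linked members were Slc25a5, Slc25a14, Slc25a43 and Slc25a53, whose summed level was 181 to 266 CPM in naive and 103 to 143 CPM in MI libraries, most of it Slc25a5. Slc25a14 was at 10.3 and 7.7 CPM and 8.14, 8.23 and 7.89 CPM in naive and 9.69, 9.1 and 8.88 CPM and 6.17, 8.43 and 8.32 CPM in MI libraries, with overlap, and the sign of its change depended on the setting. Slc25a53 was at 2.59 and 3.35 CPM and 4.8, 3.15 and 4.96 CPM in naive and 7.59, 5.48 and 5.54 CPM and 6.11, 5.2 and 4.43 CPM in MI libraries, and the groups overlapped in Vegfc-deficient mice only. Slc25a43, close to the floor, was at 0.714 and 0.544 CPM and 1.08, 0.121 and 0.244 CPM in naive and 1.24, 1.52 and 1.54 CPM and 0.411, 1.72 and 1.2 CPM in MI libraries, with log2 fold changes of 1.18 in control and 1.20 in Vegfc-deficient mice that did not pass (edgeR adjusted p = 0.218 and 0.162). Without M149, the largest value of its group, the second was 2.51 (adjusted p = 0.0167). With all libraries kept, limma-voom with quality weights gave 1.93 for Slc25a43 in Vegfc-deficient mice (adjusted p = 0.0179).

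Ordered by naive level per kb, the 13 highest members were all called lower in both genotypes. Of the 15 in the middle, 6 were higher and 5 lower in control mice and 5 higher and 6 lower in Vegfc-deficient mice. Of the 13 lowest, 2 were higher and 3 lower in control and 2 higher and 5 lower in Vegfc-deficient mice. Among all genes tested, 26.3% were higher and 24.1% lower in control mice, and 30.0% and 27.7% in Vegfc-deficient mice. The level and the change were taken from the same naive libraries, so this is a description. After MI, Slc25a4 made up 32.8 to 55.1% of the counts of the family, below its share in every naive library.

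**Figure D4:**
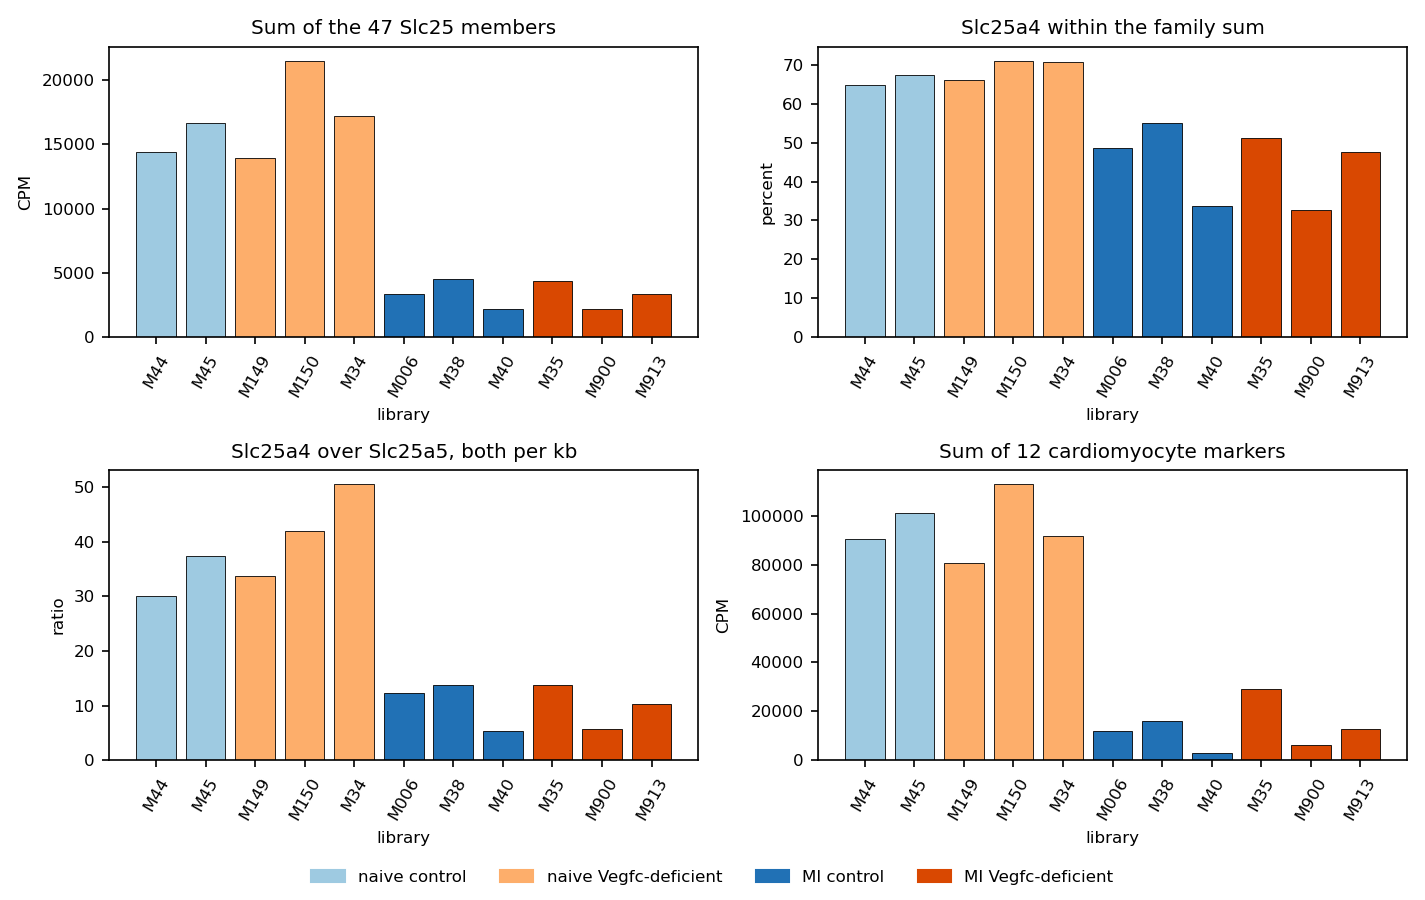
Bars for each of the 11 libraries: the summed CPM of the 47 members, the percentage of it from Slc25a4, the per-kb ratio of Slc25a4 to Slc25a5, and the summed CPM of 12 cardiomyocyte markers. In all 4 panels the 6 MI bars are below the 5 naive bars, and M40 and M900 are the lowest 2 in each.

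The upstream sequences of members that moved together are shown to let a reader see what the promoters of each direction hold. Of the members called in both genotypes, those with 1 annotated start whose 250 upstream bases touch no annotated exon were taken, and the 3 with the largest change in each direction are printed from RefSeq (GRCm38.p6), 5′ to 3′ on the strand of the gene up to the base before its start. Capitals mark matches, on either strand, to any of 8 motifs: NRF1, ERR (TNAAGGTCA), ETS (CCGGAAG), the CCAAT box (CCAAT), the GC box (GGGCGG), the E-box (CACGTG), the TATA box (TATAAA) and AP-1 (TGANTCA). Slc25a34 (chr4:141623835-141624084, minus strand), Slc25a13 (chr6:6217174-6217423, minus strand) and Slc25a12 (chr2:71367756-71368005, minus strand) fell, and Slc25a24 (chr3:109122899-109123148, plus strand), Slc25a1 (chr16:17928220-17928469, minus strand) and Slc25a30 (chr14:75787038-75787287, minus strand) rose.
Slc25a34: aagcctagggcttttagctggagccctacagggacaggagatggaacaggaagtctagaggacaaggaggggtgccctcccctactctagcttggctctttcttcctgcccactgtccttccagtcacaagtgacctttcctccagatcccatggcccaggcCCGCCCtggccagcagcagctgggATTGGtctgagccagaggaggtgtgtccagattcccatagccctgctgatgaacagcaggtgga
Slc25a13: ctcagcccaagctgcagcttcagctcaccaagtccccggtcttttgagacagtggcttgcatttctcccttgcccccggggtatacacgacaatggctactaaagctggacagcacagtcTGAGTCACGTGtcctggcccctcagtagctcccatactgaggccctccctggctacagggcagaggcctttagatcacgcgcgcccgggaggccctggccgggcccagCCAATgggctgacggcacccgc
Slc25a12: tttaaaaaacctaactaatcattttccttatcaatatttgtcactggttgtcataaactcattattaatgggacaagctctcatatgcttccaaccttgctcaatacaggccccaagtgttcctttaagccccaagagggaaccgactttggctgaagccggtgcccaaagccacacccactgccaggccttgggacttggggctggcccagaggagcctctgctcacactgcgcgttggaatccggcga
Slc25a24: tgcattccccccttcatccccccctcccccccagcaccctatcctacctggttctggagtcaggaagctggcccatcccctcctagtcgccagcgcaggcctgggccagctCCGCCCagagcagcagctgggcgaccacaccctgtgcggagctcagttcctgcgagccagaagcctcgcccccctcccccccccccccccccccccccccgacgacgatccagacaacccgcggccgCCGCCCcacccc
Slc25a1: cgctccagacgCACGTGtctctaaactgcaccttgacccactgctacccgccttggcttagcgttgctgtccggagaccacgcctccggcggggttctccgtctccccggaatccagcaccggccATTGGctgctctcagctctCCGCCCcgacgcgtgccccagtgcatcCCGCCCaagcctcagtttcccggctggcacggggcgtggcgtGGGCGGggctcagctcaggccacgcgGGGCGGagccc
Slc25a30: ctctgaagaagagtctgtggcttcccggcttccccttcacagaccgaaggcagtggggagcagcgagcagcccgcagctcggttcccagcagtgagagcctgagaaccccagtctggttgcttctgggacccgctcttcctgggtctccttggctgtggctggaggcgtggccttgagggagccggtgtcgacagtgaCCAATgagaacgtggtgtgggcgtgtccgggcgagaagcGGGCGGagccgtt

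The windows of Slc25a1, Slc25a24 and Slc25a30 held 4, 2 and 1 GC boxes, and that of Slc25a34 held 1. CCAAT boxes stood at 22 bases before the start of Slc25a13, 52 before that of Slc25a30, 64 before that of Slc25a34 and 125 before that of Slc25a1, counted to the 5′ end of the match. In Slc25a13 an AP-1 match and an E-box overlapped, and the window of Slc25a12 held no match. Over the 46 windows of 36 members with an entry, a GC box was in 32 windows (69.6%, beside 32.7% of 32851 windows of all genes), a CCAAT box in 21 (45.7%, beside 33.8%) and an E-box in 8 (17.4%, beside 6.02%). The ERR motif was in 0 of the 46 windows and the NRF1 motif in 2 (4.35%, beside 3.74% of all windows). The GC box was in 14 of 19 windows of members that fell in both genotypes and in 5 of 5 of those that rose. A match is only a stretch of letters, and windows of 1 gene can overlap.

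Other genes of mitochondrial transport were read beside the family. For the counts below, the shares of all genes tested were 26.3% higher and 24.1% lower in control mice. In Vegfc-deficient mice they were 30.0% higher and 27.7% lower. Of carriers under other symbols, Ucp2, an uncoupling protein of many tissues and of immune cells, rose (1.81 in control and 1.75 in Vegfc-deficient mice on the log2 scale) and Ucp3, that of muscle, fell (-3.80 and -2.79), while Mtch1 rose and Mtch2 fell and Ucp1 had too few counts. Of 18 other inner membrane transport genes, 1 rose and 8 fell in control and 4 rose and 9 fell in Vegfc-deficient mice, shares of 50.0% and 72.2% called beside 50.4% and 57.6% of all genes. The pyruvate carrier subunits Mpc1 and Mpc2 fell, with log2 fold changes of -1.89 and -2.56 in control mice and -2.25 and -2.78 in Vegfc-deficient mice. Of 10 genes that import carriers or insert them into the membrane, 8 fell in control and 9 in Vegfc-deficient mice, and of the outer membrane channels Vdac1, Vdac2 and Vdac3 all 3 fell in both. Of 80 tested subunits of the respiratory chain and ATP synthase, 77 fell in control and 78 in Vegfc-deficient mice and 0 rose, with median log2 fold changes of -2.42 and -2.64. Fibroblast markers rose (6 of 8 in control and 7 of 8 in Vegfc-deficient mice), with a sum of 4828 to 6730 CPM in naive and 29965 to 47562 CPM in MI libraries. Macrophage markers rose too (5 of 8 in each genotype), with a sum of 1761 to 2514 CPM in naive, 3314 to 6029 CPM in MI control and 2382 to 5022 CPM in MI Vegfc-deficient libraries. Of 4 smooth muscle markers, some of which activated fibroblasts also express, all rose in each genotype, with a sum of 141 to 275 CPM in naive and 575 to 2429 CPM in MI libraries. Of 5 T cell markers all rose in control mice, with a sum of 4.1 and 4.44 CPM in naive and 13.1 to 140 CPM in MI libraries, and 0 passed in Vegfc-deficient mice, with 9.44 to 15.1 CPM in naive and 16.2 to 23 CPM in MI libraries. The part of any of these cells in the rises of Slc25a24, Slc25a1 and others was not tested.

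After MI no member passed the test between Vegfc-deficient and control hearts. It called 0 of 41 members and 0 of 14779 genes (0%), with a smallest adjusted p in the family of 0.61 (edgeR, Benjamini-Hochberg). At an unadjusted p under 0.05 it was 1 member, beside 7.94% of all genes, and DESeq2 called 62 genes in all and 0 members. The groups did not overlap for 1 member that was higher (Slc25a44) and 3 that were lower (Slc25a14, Slc25a17 and Slc25a28), beside 12.1% of all genes (5.99% higher and 6.12% lower). The median log2 fold change was -0.02, with 17 members positive and 24 negative, beside -0.01 in all genes.

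Slc25a28 had the smallest p, with 20.2, 18.1 and 23.2 CPM in MI Vegfc-deficient and 24.8, 27.3 and 24.3 CPM in MI control libraries, the former all below the latter. Its log2 fold change was -0.31 (95% interval -0.6 to -0.03, edgeR adjusted p = 0.61). Slc25a44 was at 31.4, 33.3 and 28.7 CPM against 20.6, 27 and 24.2 CPM, with a log2 fold change of 0.38 (95% interval 0 to 0.76, edgeR adjusted p = 0.626), and at 24.4 and 24.4 CPM and 30.3, 20.3 and 19.9 CPM in the naive groups. Slc25a13 was positive at 0.79 (95% interval -0.09 to 1.67, edgeR adjusted p = 0.657), a value of 0.18 without M35, whose level of 59.8 CPM stood above the other MI libraries and whose cardiomyocyte marker sum was the highest of them. Slc25a20 was positive at 0.44 (95% interval -0.2 to 1.09), and 0.08 without M35. Slc25a14 was at -0.27 (95% interval -0.66 to 0.13). For Slc25a4 the interval, -1.21 to 1.02, reached beyond 1 log2 unit on either side of 0 around a log2 fold change of -0.09, whereas for Slc25a17 it was -0.35 to 0.11 around -0.12, so that the precision differed widely among members.

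In naive hearts the test also called 0 of 41 members and 0 of all genes (0%), with 1 member at an unadjusted p under 0.05 (all genes, 3.38%), and DESeq2 called 14 genes in all. The groups did not overlap for 8 members that were higher and 1 that was lower in Vegfc-deficient hearts, beside 22.4% of all genes (12.3% higher and 10.1% lower), and the median log2 fold change was 0.08 (all genes, 0.01). Slc25a31 (ANT4, a translocase known from male germ cells; chr3:40708855-40726096, plus strand) had the smallest p, with 0.357 and 0.634 CPM in naive control and 1.57, 6.05 and 1.63 CPM in naive Vegfc-deficient libraries and 1.18, 1.28 and 1.03 CPM and 1.35, 1.09 and 1.24 CPM in MI control and MI Vegfc-deficient libraries. M150 stood far above all other libraries, and the rest lay between 0.357 and 1.63 CPM. The difference was 2.60 (95% interval 1.1 to 4.1, unadjusted p = 0.0031, edgeR adjusted p = 1), and 1.68 without M150. Slc25a32 (-0.29), Slc25a53 (0.54), Slc25a42 (-0.44) and Slc25a47 (0.61) followed, all with an edgeR adjusted p of 1. Slc25a42 was at 17.4 and 13.6 CPM in naive control and 9.41, 9.2 and 15.5 CPM in naive Vegfc-deficient libraries, and Slc25a47 at 3.39 and 4.89 CPM and 6.47, 8.84 and 3.82 CPM, both with overlap.

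**Figure D5:**
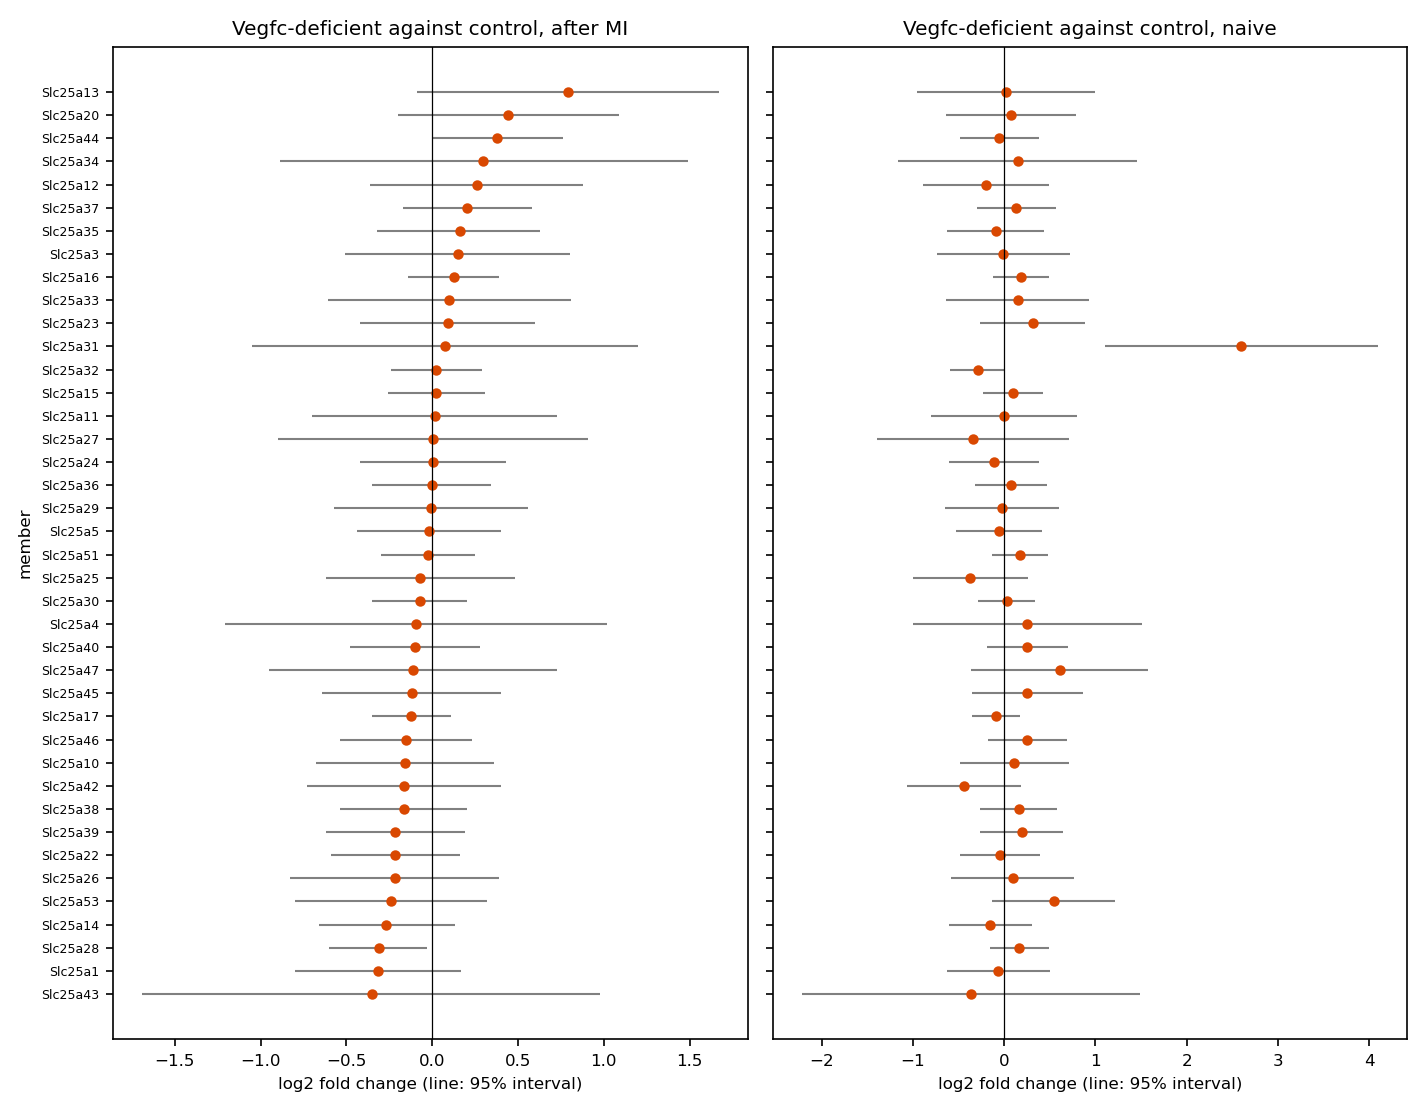
Log2 fold change of Vegfc-deficient against control hearts for 40 of the 41 members after MI (left) and in naive hearts (right), with 95% intervals, ordered by the value after MI; the horizontal axes differ. The interval of Slc25a31 in naive hearts lies above 0 and that of Slc25a28 after MI below 0, and all the others include 0.

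The MI change differed between the genotypes for 0 of 41 members and 0 of 14779 genes (0%) by the interaction term in edgeR (Benjamini-Hochberg), for 2 members at an unadjusted p under 0.05 (all genes, 8.30%), and DESeq2 called 58 genes in all. The median interaction was -0.08 (all genes, -0.03). The members with p under 0.05 were Slc25a31 (-2.53, 95% interval -4.39 to -0.66, edgeR adjusted p = 0.543) and Slc25a28 (-0.48, 95% interval -0.91 to -0.05, edgeR adjusted p = 0.565). Slc25a53 (-0.78), Slc25a32 (0.31) and Slc25a44 (0.43) followed, with intervals that included 0. Without M149, labelled naive Vegfc-deficient, the test still called 0 members in naive hearts and 0 in the interaction, and over all genes it called 17 in naive hearts and 1 in the interaction.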

How the data were processed

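Left ventricular mRNA of 11 mice was sequenced as stranded libraries. Per the labels' processing notes the authors used cutadapt 1.13, STAR, HTSeq 0.6.1p1 and DESeq2 1.14.1 with mm10, and they deposited raw counts per Ensembl gene, 1 file per mouse, without normalization. The roles and settings of these tools, including the strand option, are not given in the sources used here. Genes of the mitochondrial genome had 0 counts. Symbols, positions and merged exon lengths came from GENCODE M21 (24991 of 25006 genes matched), and promoters from RefSeq, where 36 of 47 members had an entry.

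From the counts, CPM were computed with library sizes scaled by TMM. Genes were kept by filterByExpr (14779 genes), and 1 fit of 4 groups over all 11 libraries was made with edgeR 4.0.16 (quasi-likelihood test, Benjamini-Hochberg adjustment, threshold 0.05). Standard errors were derived from the log2 fold change and F. Each library is 1 mouse, and samples were grouped by their labels. The mouse numbers are not shared between groups. Values in every library are given for members called in both genotypes with the largest changes (up to 12 in each direction), the 5 highest by level, the translocases, the X-linked members and the 5 smallest p of each genotype comparison; some others are given too. 1 member is kept in the counts but is not reported here. Members and lists were chosen with earlier results of these data known. DESeq2 1.42.0, RLE factors, other filters and thresholds, limma 3.58.1 voom with quality weights, total counts and the omission of each library were alternatives. A simulation with changed genes in the MI comparisons was also run, and no result here rests on it. Far fewer genes were changed in it than were called in these data, so it does not test the scaling under so broad a change. It did not cover the genotype comparisons or the interaction. Protein sequences were not used here.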

Additional observations from a re-analysis of the deposited data

Results flagged for a closer look

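Slc25a31, the translocase ANT4, was singled out because its change with MI went in opposite directions in the 2 genotypes. The rule asked for groups that did not overlap, in opposite directions, or for an interaction that passed. The values below are those the rule used, so they describe the gene and do not test it. Without regard to direction, the groups did not overlap for 72.1% of all genes in control and 64.3% in Vegfc-deficient mice. How many of all genes had opposite directions was not counted. In control mice all 3 MI libraries (1.03 to 1.28 CPM) lay above both naive libraries (0.357 and 0.634 CPM). In Vegfc-deficient mice all 3 MI libraries (1.09 to 1.35 CPM) lay below all 3 naive libraries (1.57, 1.63 and 6.05 CPM). The value of 1.57 CPM is that of M149, whose Lyz2 level goes against its label. The interaction was -2.53 on the log2 scale (standard error 0.84, adjusted p = 0.543 by edgeR with Benjamini-Hochberg adjustment, range over alternatives 0.271 to 0.997), so the difference did not pass over all genes. Its value ran from -2.99 to -1.60 over the alternatives. The gene had 264 counts in all libraries together, and without naive Vegfc-deficient M150 its log2 fold change with MI in Vegfc-deficient mice was -0.38 in place of -1.30. Without M150 the change in control mice passed (adjusted p = 0.0345).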

How the results depend on the processing

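Of 1344 refits of named members, 1264 kept direction and side of the threshold. Many of these could hardly change, since they left out a library outside the groups compared or began far from the threshold. The count is therefore no measure of how firm the single calls were. With an adjusted p under 0.01, 4 members rose in each genotype and 3 in both, and at a change of 1 log2 unit or more 2 rose in control and 1 in Vegfc-deficient mice. Of the 21 that fell in control mice, 18 did so with an adjusted p under 0.01 and 14 at 1 log2 unit or more. With total counts, 13 rose and 13 fell in control mice, 11 rose in Vegfc-deficient mice, and 10 rose and 13 fell in both. Of all 14779 genes, 9009 were called in control and 9880 in Vegfc-deficient mice with this scaling. The medians of the members were then -0.028 in control and -0.206 in Vegfc-deficient mice, beside 0.575 and 0.593 in all genes. Limma-voom gave a median of -0.592 in Vegfc-deficient mice. Leaving out each library gave 3 to 9 members higher (median -0.582 to -0.385) in control mice and 5 to 8 higher (median -0.772 to -0.504) in Vegfc-deficient mice, and 3 to 6 higher and 16 to 21 lower in both. The median ran from -0.098 (without M40) to 0.048 between the MI groups and from -0.153 (without M35) to -0.002 for the interaction. Signs turned, in control mice, for Slc25a14 (-0.033 by DESeq2, -0.032 with RLE factors, -0.164 to 0.259 without 1 library), Slc25a32 (-0.005, -0.004, and -0.085 to 0.223 without 1 library), Slc25a47 (0.015 with total counts) and Slc25a51 (0.212 with total counts). In Vegfc-deficient mice they turned for Slc25a14 (0.008 with voom, 0.418 with total counts, -0.18 to 0.052 without 1 library) and Slc25a51 (0.063 with total counts), the latter called lower with TMM. With total counts Slc25a25 (0.276) and Slc25a44 (0.415) in control and Slc25a40 (0.443) in Vegfc-deficient mice also turned, none of them called. The causes were not tested. No paired analysis was possible because the mouse numbers are not shared between groups. With 2 naive control libraries and 3 in the other groups, differences between genotypes of the size seen here were not resolved at this depth and spread, and Slc25a31 and Slc25a43 were close to the floor in some libraries.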
